A study of Caenorhabditis elegans with 17 samples.

Results

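The data compared here are the antisense small RNAs of 2 total small RNA libraries from L3 stage Caenorhabditis elegans grown at 20°C, one from eri-1(mg366);dis-3(ust56) animals (the control) and one from animals that also carry rrf-1(pk1417) and rrf-2(ok210), called the quadruple mutant. Both strains thus share the eri-1 allele and dis-3(ust56), a temperature-sensitive missense allele that reduces the function of a catalytic subunit of the RNA exosome, the complex that degrades RNA from its 3′ end. The quadruple mutant differs from its control in rrf-1 and rrf-2, and no library lacked just one of them, so their shares cannot be told apart. A gene entered the comparison when it had 100 or more reads on its antisense strand in either library, and 703 of the 45506 genes in the files did. The series holds 17 libraries, 1 for each genotype and kind of RNA, and 6 further L3 total libraries were used as a background, with 2 libraries of small RNAs bound to NRDE-3 from eri-1;dis-3 and quadruple mutant animals that carry a 3xFLAG::GFP::NRDE-3 transgene. The 6 total libraries were N2, the wild-type strain, dis-3(ust56), exos-1(ust57), eri-1(mg366), and the eri-1 allele combined with exos-10(ok2269) or with exos-1(ust57), which are mutations of other exosome subunits. RNA came from whole animals, whose number is not given in the sources used here, so fewer cells that make a small RNA and less of it in each cell cannot be told apart. With 1 library per genotype there is no replicate check. Intervals cover counting error only and compare these libraries, and no p-value across genes is given.

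In C. elegans, RNA-dependent RNA polymerases (RdRPs) copy target RNAs into short antisense RNAs, the secondary 22G-RNAs, which are loaded into worm-specific Argonaute proteins. RRF-1 and EGO-1 are the RdRPs known to make most 22G-RNAs, with EGO-1 acting in the germ line, RRF-3 makes the primary 26G-RNAs of the ERI pathway, and RRF-2 is less well understood. When the exosome is impaired, antisense small RNAs to ribosomal RNA, termed risiRNAs, accumulate and bind the nuclear Argonaute NRDE-3. The comparison asks which antisense small RNAs need RRF-1 and RRF-2 and which do not. The files give no read lengths, so 22G-RNAs, 26G-RNAs and other antisense fragments were counted together.

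The labels were first checked on the deleted genes. rrf-1 had 13 sense reads in the quadruple mutant and 25 to 106 in the other 7 L3 total libraries, and rrf-2 had 1 against 7 to 71. Antisense reads on rrf-2 went from 61 to 7, and those on rrf-1 from 36 to 21. The remaining RdRP genes kept their antisense reads, with 15 and 15 on rrf-3 and 82 and 121 on ego-1. The quadruple mutant library held 8739137 reads on transcripts and the control 7880392. Counts were scaled to 1000000 reads (RPM), leaving sense rRNA and sense protein-coding reads out of the total, and these totals were 3725013 and 3871878. Sense microRNAs were 1.13-fold and sense piRNAs 0.954-fold of the control on this scale. Of the 8 members of the mir-35 family, which is made in embryos and the hermaphrodite germ line, 6 had more than 2-fold more sense reads in the quadruple mutant, with a range over the family of 0.970 to 4.11. Sense reads of body muscle genes, as a share of sense coding reads, were 0.661 of the control (95% interval 0.635 to 0.687), those of intestine genes 0.725 (0.667 to 0.788), those of hypodermis genes 0.880 (0.782 to 0.990), those of neuron genes 1.21 (1.00 to 1.46), and those of germline genes 1.21 (0.946 to 1.55). The part of these differences in the results was not tested.

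Antisense reads to rRNA, snRNA and snoRNA were lower in the quadruple mutant, whereas those to protein-coding genes and transposons were not. Antisense rRNA reads numbered 354 in the control and 29 in the quadruple mutant, a ratio of RPM of 0.0852 (exact conditional 95% interval 0.0562 to 0.124). Antisense snRNA reads were 673 and 292 (0.451, 0.392 to 0.518), and antisense snoRNA reads 21257 and 14063 (0.688, 0.673 to 0.702). Spliced leader RNAs, the short exons that are joined in trans to worm mRNAs, had 1739 and 1594 antisense reads (0.953, 0.890 to 1.02). Those to lincRNAs were 3508 and 3241 (0.960, 0.915 to 1.01). The ncRNA class, the largest, had 841767 and 693360 antisense reads (0.856, 0.853 to 0.859), most of them opposite another gene, as described below. MicroRNA genes had 225 and 174 (0.804, 0.656 to 0.984). Transposon antisense reads were 22653 and 25423 (1.17, 1.15 to 1.19). Protein-coding genes had 202841 and 221368 antisense reads, a ratio of 1.13 (1.13 to 1.14) that became 0.984 when all reads on transcripts set the scale. Every scale tried left rRNA, snRNA and snoRNA below 1.

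**Figure D1:**
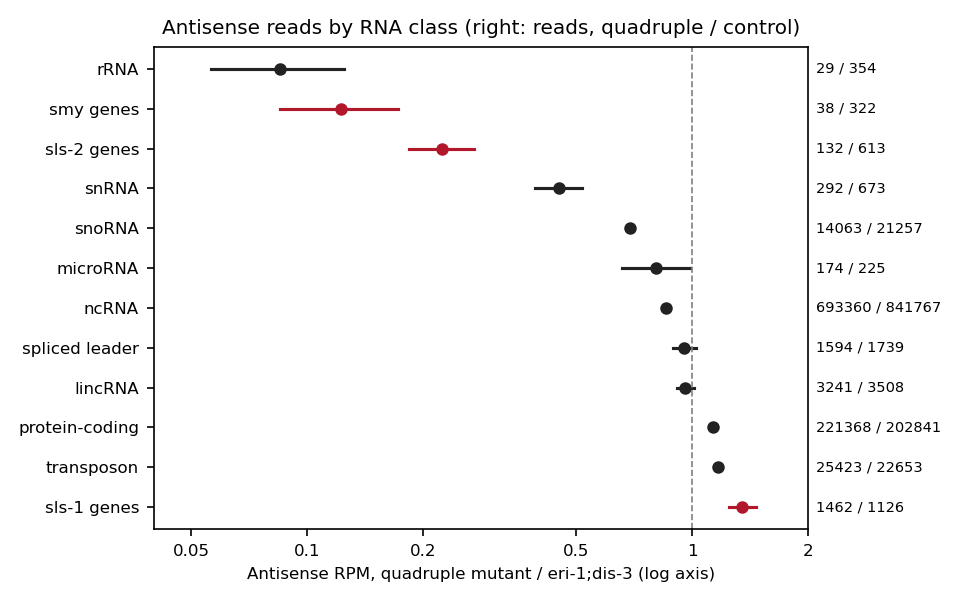
Ratio of antisense RPM, quadruple mutant over eri-1;dis-3, for RNA classes with 100 or more reads (black) and for 3 gene families (red), on a log axis. Points are ratios, bars exact 95% intervals for counting error, and the numbers at the right are reads in the quadruple mutant and the control. rRNA, the smy genes and the sls-2 genes lie at 0.0852, 0.123 and 0.224, and the sls-1 genes, nearly all sls-1.12, at 1.35.

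Within the rRNA genes counted, which are those of 5S, 5.8S, 18S and 26S rRNA, the loss came from the long subunits. The paper reports that in dis-3 mutants many risiRNAs lay on the internal transcribed spacers, which separate these rRNAs in their precursor. Those spacers are not among the rRNA genes counted, so antisense reads on them are not covered here. On 26S rRNA (rrn-3.1, chromosome I, 15064838 to 15068346 of WBcel235, plus strand) there were 290 antisense reads in the control and 19 in the quadruple mutant, or 74.9 and 5.10 RPM, 14.7-fold lower (9.23 to 24.7). The other 6 L3 total libraries included N2 at 2.06 RPM, eri-1 at 0.393, dis-3 at 39.8, exos-1 at 33.7, eri-1;exos-1 at 27.9 and eri-1;exos-10 at 203. The quadruple mutant thus lay below every exosome mutant library but above N2 and eri-1. The 2 copies of 18S rRNA had 60 and 3 antisense reads, 19.2-fold lower (6.28 to 95.9). 5S rRNA had 4 and 6 reads and 5.8S rRNA 0 and 1, so no difference was detectable at this depth. Sense rRNA reads moved the other way, with a ratio of RPM of 1.37. Against eri-1 alone, antisense rRNA reads were 4.95-fold higher in the quadruple mutant (1.74 to 19.4, from 29 and 4 reads).

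Among spliced leader genes with 10 or more antisense reads, all but sls-1.12 were lower in the quadruple mutant. SL2 RNA, made by the sls-2 genes, is joined to the downstream genes of operons, and SL1 RNA, made by the sls-1 genes, to most other trans-spliced genes. Summed over 18 sls-2 genes, antisense reads were 613 and 132, 4.47-fold lower (3.70 to 5.43). All 13 sls-2 genes with 10 or more reads were at least 2-fold lower and 8 were at least 4-fold lower, beside 8.16% and 4% of all 4828 genes at this minimum. sls-2.9 led them with 34.1 RPM in the control and 4.83 in the quadruple mutant, below the 9.11 RPM of the lowest of the other 7 libraries. The sls-1 genes instead had 1126 and 1462 antisense reads (1.35-fold higher, 1.25 to 1.46). Nearly all lay on sls-1.12, with 1068 and 1457 reads, and only 7 and 1 sense reads. The few antisense reads left on the other sls-1 genes, none of which had 10, were lower in the quadruple mutant. The rise of the sls-1 sum is thus that of sls-1.12. Without sls-1.12 the ratio of the whole class was 0.212 (0.175 to 0.255).

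Among the small nuclear RNAs the smy genes stood lowest. SmY RNAs are nematode snRNAs that associate with Sm proteins and are thought to act in trans-splicing. Together the 12 smy genes had 322 antisense reads in the control and 38 in the quadruple mutant, 8.15-fold lower (5.81 to 11.7), while their sense reads were 366 and 421. smy-1 alone had 132 and 6 antisense reads, or 34.1 and 1.61 RPM. Its own sense reads were lower, at 100 and 65, unlike the sum of the family. N2 and eri-1 had 1.18 and 1.97 RPM on smy-1, dis-3 76.5, exos-1 173, eri-1;exos-1 113 and eri-1;exos-10 206. In the quadruple mutant smy-1 thus lay between the libraries with an intact exosome. The 7 other smy genes with 10 or more reads were 2-fold lower or more, and 6 of them 4-fold or more, again beside 8.16% and 4% of all genes. The files class smy-2 and smy-3 as snoRNA and smy-9 and smy-12 as ncRNA. Of the other 23 snRNA genes with 10 or more reads, 18 had log2 ratios below 0, and the median was -0.94. At least 2-fold lower were 11 and at least 4-fold lower 5, beside the same 8.16% and 4%, while 2 were at least 2-fold higher. Y57G11C.35 had 14 and 0 antisense reads and F11A5.14 21 and 1. T08G5.11 had 24 and 31, and sup-6 9 and 25, with 191 and 1074 sense reads. Many snRNA genes are near-identical copies whose reads the counting could split, so single values are uncertain.

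Small nucleolar RNAs, which guide chemical changes on rRNA and snRNA, gave the largest group of lower genes. In all, 24 of the 703 genes (3.41%) were at least 4-fold lower in the quadruple mutant, with 1 read added to each count, and 10 of these were among the 20 snoRNA genes measured. The snoRNA median log2 ratio was -1.92, against 0.27 over all 703 genes. C14E2.12 had 123 antisense reads in the control and 5 in the quadruple mutant, F54F11.6 260 and 16, and C05H8.3 329 and 28. Sense reads of C05H8.3 were 3393 and 2932, those of Y53F4B.47, another of the 10, were 978 and 1075, and its antisense reads 133 and 22. C14E2.12 had 41 and 14 sense reads, and C16D9.11, also one of the 10, had 2357 and 1838. Of the 24 lower genes of all classes, 11 had sense reads that were not lower, beside 473 of the other 679 genes. Over the whole class, sense snoRNA reads were 23659 and 23703 RPM. F25H2.15, Y74C9A.6 and Y37E3.20 were between 2- and 4-fold lower, Y74C9A.6 with 305 and 91 antisense reads, and Y73F8A.1175 had 935 and 472. With a minimum of 10 reads, 36 of 50 snoRNA genes were at least 2-fold lower, beside 8.16% of all 4828 genes.

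A second group of 7 snoRNA genes stayed within 2-fold. K07C10.2 carried most of the class, with 13097 reads in the control and 10073 in the quadruple mutant (3383 and 2704 RPM). Without it the class ratio was 0.508 (0.489 to 0.528). B0334.12 had 1801 and 1656 reads, C17H12.36 233 and 245, and Y57G11C.1145 112 and 166. These 4 had between 2 and 36 sense reads in each of the 2 libraries. B0334.12 was at 381 RPM in N2 and 622 in eri-1, and K07C10.2 at 495 and 682, while the lower gene F54F11.6 was at 2.20 and 3.15. C06E7.95, with 210 and 180 reads in the 2 libraries compared, was at 0.147 in N2 and 0.393 in eri-1, so a high level with an intact exosome was not shared by all retained snoRNA genes. The antisense strand of K07C10.2 is also the sense strand of the ncRNA gene K07C10.6, which had 12875 and 9860 sense reads. Reads of these overlapping genes cannot be told apart.

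**Figure D2:**
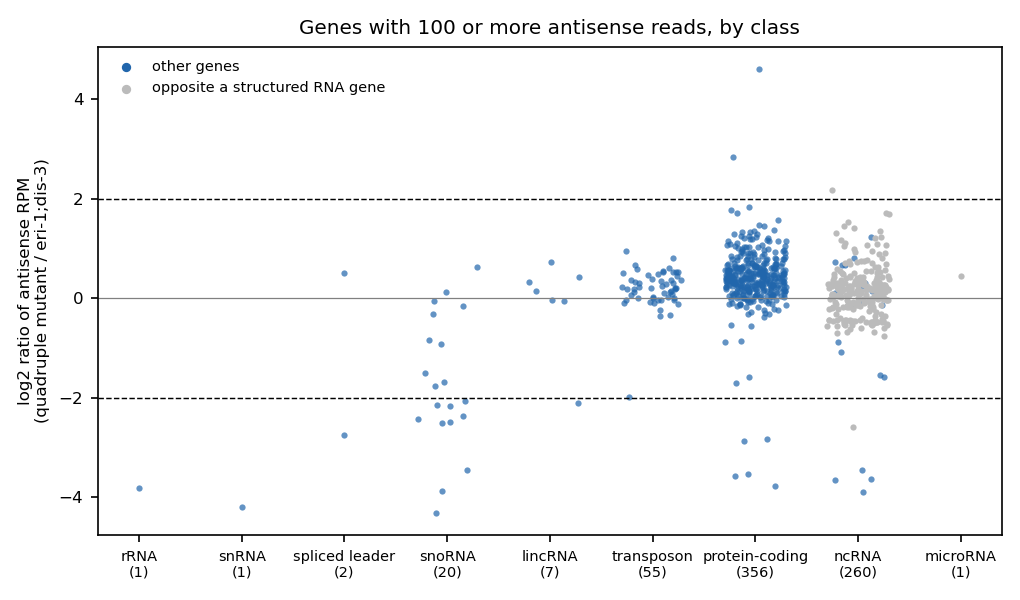
Log2 ratio of antisense RPM, quadruple mutant over eri-1;dis-3, for each of the 703 genes with 100 or more antisense reads, by RNA class with the number of genes in brackets. Dashed lines mark 4-fold, and grey points are genes whose exons overlap a microRNA, tRNA, rRNA, snRNA or snoRNA gene on the opposite strand. snoRNA genes spread from -4.31 to 0.62, while 54 of the 55 transposons lie within 2-fold.

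The lower genes of all classes were few and, with the snoRNA genes included, mostly short. Of the 703 genes, 24 were at least 4-fold lower, 9 between 2- and 4-fold lower, 616 within 2-fold, 51 between 2- and 4-fold higher and 3 at least 4-fold higher. At 2-fold this was 4.69% of genes lower and 7.68% higher. The 4-fold threshold passed between the snoRNA F43A11.8 at a log2 ratio of -2.07 and the transposon F57G4.7 at -1.98. Beside the 10 snoRNA genes, the 24 held rrn-3.1, smy-1, sls-2.9, linc-169, 5 of 260 ncRNA genes and 5 of 356 protein-coding genes. Exons of the 24 genes summed to a median of 169.5 bases, against 660.5 for the other genes with an annotated length. Under 300 bases were 18 of the 24 (75%) and 43.2% of those other genes. The X chromosome held 8 of the 24 (33.3%) and 130 of the 644 measured genes with an annotated position.

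On the X chromosome, F23A7.4 and F23A7.8 are short protein-coding genes on the plus strand, at 16212606 to 16212812 and 16213373 to 16213576 of WBcel235. F23A7.4 had 80.1 RPM in the control and 5.64 in the quadruple mutant, and F23A7.8 had 46.2 and 3.76. Both lay below all 7 other libraries, in which F23A7.4 ranged from 6.61 (N2) to 304 RPM (eri-1;exos-10). The margin below N2, which had 5.29 RPM on F23A7.8, was small. The quadruple mutant values rest on 21 and 14 reads, so neither gene is read as lower than in N2. Their sense reads were 167 and 179 for F23A7.4 and 100 and 102 for F23A7.8. The ncRNA gene F01G12.19 at 16371115 to 16371212 went from 696 antisense reads to 44. R160.11 and F15A8.19, ncRNA genes 15599 bases apart on opposite strands, had 129 and 9 reads and 159 and 13 reads. Their values were close to each other in every library, and whether they share reads was not tested. On chromosome V, F31F7.1 (protein-coding, 6276439 to 6278160, plus strand) had 458 and 36 reads, or 118 and 9.66 RPM. It was at 1.91 RPM in N2 and 0.786 in eri-1.

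Y47H10A.5 differed from the rest in position and level. This protein-coding gene lies 676 bases from rrf-2 on the same strand of chromosome I, at 12095482 to 12097987. It had 1238 antisense reads in the control and 163 in the quadruple mutant, or 320 and 43.8 RPM. The other 6 L3 total libraries, those with an intact exosome included, were between 245 (dis-3) and 1317 RPM (eri-1). Its sense reads went the other way, from 6 to 61. Whether the rrf-2 lesion next to it and the loss of the RdRPs contribute separately cannot be told apart in these libraries. ego-1, which lies 563 bases from rrf-1, was at 21.2 RPM in the control and 32.5 in the quadruple mutant.

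Most of the lower genes carried few antisense reads where the exosome was intact. Over the 24 genes the median was 2.87 RPM in N2 and 5.31 in eri-1, but 51.3 in dis-3, 84.8 in exos-1, 102 in eri-1;exos-1 and 177 in eri-1;exos-10. It was 61.9 RPM in the control and 6.58 in the quadruple mutant. Neither compared library enters the contrasts of exosome mutants with their parents, but the choice of the 24 genes bears on them. Most of the 24 reached the minimum of reads only in the control, which is itself an exosome mutant. Genes chosen as high in one exosome mutant may be high in others for that reason alone. The shares of all 703 genes are thus not a matched background, and the contrasts below describe levels only. exos-1 was at least 4-fold above N2 for 21 of the 24 genes, beside 11.9% of all 703 genes. The numbers were 19 for dis-3 over N2 (8.96% of all genes), 21 for eri-1;exos-1 over eri-1 (10.7%) and 21 for eri-1;exos-10 over eri-1 (10.5%). Y47H10A.5 and F22H10.10 had the highest levels of the 24 genes in N2 and eri-1, followed in N2 by linc-169 at 28.5 and 31.1 RPM, Y105C5A.1283 at 23.8 and 29.5 and Y48A6C.10 at 19.4 and 30.3 (N2 and eri-1). F22H10.10, an ncRNA gene at 16698131 to 16698298 on the X chromosome, was at 34.5 and 55.8 RPM there, 56.6 in the control and 4.30 in the quadruple mutant. The quadruple mutant was above eri-1 for 13 of the 24 genes and above N2 for 17, beside 302 and 344 of all 703 genes. It lay below all 7 other libraries for 7 of the 24 and for 1.56% of the 703 genes, but the control is one of these libraries and the 24 were taken as lower than it, so nothing is read from this count.

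**Figure D3:**
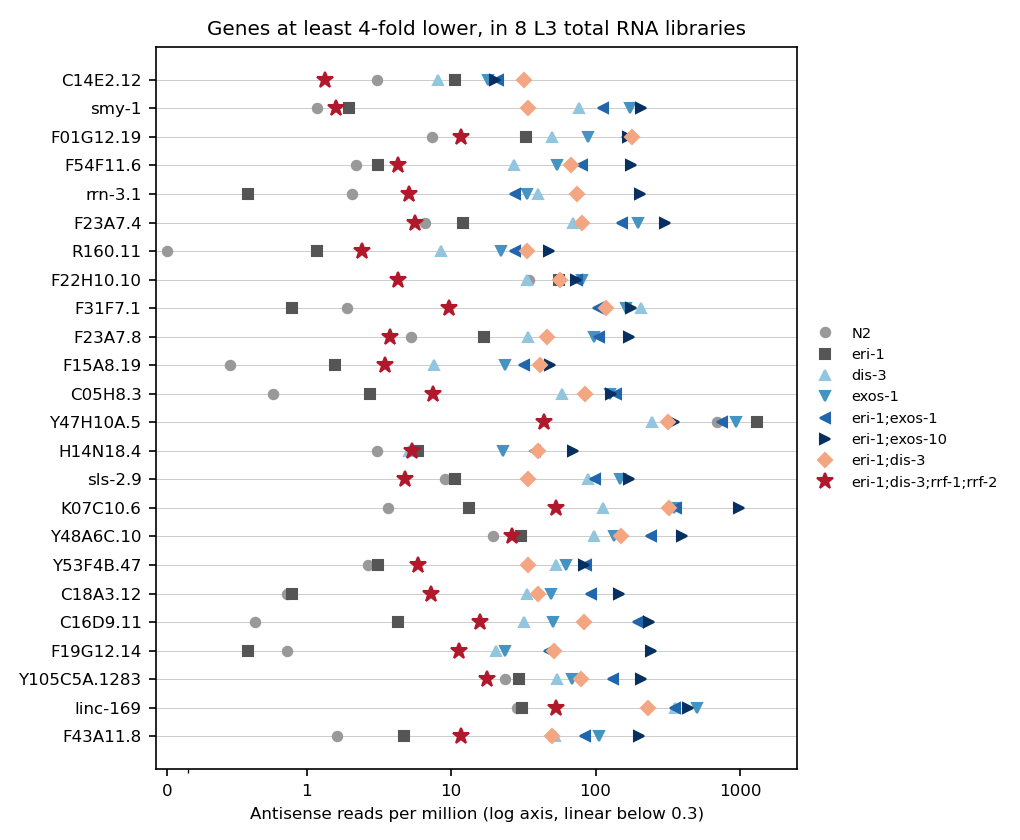
Antisense RPM of the 24 genes at least 4-fold lower in the quadruple mutant, in each of the 8 L3 total libraries (1 point per library, log axis that is linear below 0.3). The quadruple mutant is shown by red stars, N2 and eri-1 in grey, the exosome mutants in blue and eri-1;dis-3 in orange, and the quadruple mutant lies above eri-1 for 13 genes and above N2 for 17. For Y47H10A.5 and F22H10.10 N2 and eri-1 are also high.

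The bulk of antisense small RNAs was retained. Of 356 protein-coding genes with 100 or more antisense reads, 312 were within 2-fold, 5 were at least 4-fold lower and 2 at least 4-fold higher, and the median log2 ratio was 0.40. F43E2.6 (chromosome II, 7366455 to 7368861, minus strand) was the most abundant coding target, with 34549 reads in the control and 18376 in the quadruple mutant, or 8923 and 4933 RPM (1.81-fold lower, 1.78 to 1.84). N2 had 317 RPM on it, and its sense reads were also lower, at 7176 and 3953. Next came bath-20 with 2989 and 2953 reads, B0250.8 with 1936 and 1892, bath-45 with 1817 and 1549, and fkb-8 with 1310 and 1460. bath genes encode MATH and BTB domain proteins, a family expanded in C. elegans. Among transposons 54 of 55 were within 2-fold, with a median log2 ratio of 0.21. T27C5.9 had 1627 and 1845 reads and R13D11.7 769 and 1071. lincRNA genes were also mostly retained, with linc-29 at 864 and 1372 reads and linc-63 at 467 and 565, while linc-169 had 897 and 199.

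Genes of the small RNA pathway itself also carried antisense reads. Of 20 Argonaute genes, 6 had 100 or more antisense reads. csr-1, the germline Argonaute that protects expressed genes, had 118 in the control and 272 in the quadruple mutant, and wago-4 had 106 and 226. prg-1, the Piwi protein, had 137 and 197, and nrde-3 224 and 174. Summed over the list the ratio was 1.44 (1.32 to 1.57). None of the 6 was 4-fold lower or higher, beside 3.41% and 0.427% of all genes, though 6 genes are too few to set against these shares. With a minimum of 10 reads 1 of 11 was at least 4-fold lower, beside 4% of all genes. This was alg-1, a microRNA Argonaute, with 33 and 6 reads. The germ granule gene znfx-1, which encodes an RNA helicase, had 69 and 168 reads, and glh-4, a Vasa-like helicase, 71 and 144. In the ERI pathway eri-6, which encodes part of a helicase, had 1085 and 1160 reads. sosi-1 had 270 and 483. It is the only listed target of ERGO-1 26G-RNAs with 100 or more reads. Over all 22 lists, 47 genes had 100 or more antisense reads, and 0 of them were at least 4-fold lower, beside 3.41% of all genes. At that share 47 genes are too few for the 0 to be read as a result.

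Only 3 genes were at least 4-fold higher. T15D6.10 (protein-coding, chromosome I, 12394120 to 12396278, plus strand) had 8 antisense reads in the control and 209 in the quadruple mutant, or 2.07 and 56.1 RPM. The other 6 libraries went up to 15.5 RPM, so the quadruple mutant stood above all of them. Of the 703 genes, 5.26% stood above all 7 other libraries, the control included. T15D6.10 was taken as higher than the control and reached the minimum of reads only in the quadruple mutant, so nothing is read from this share. T15B7.15 had 17 and 123 reads, and 63.3 RPM in the highest of the other libraries. The third, F49E7.4, an ncRNA gene whose exon overlaps the tRNA gene F49E7.t2 on the opposite strand, had 47 and 206 and fell short of 4-fold when sense microRNAs or all reads set the scale. The next gene, R11E3.2, was at a log2 ratio of 1.84 (29 and 102 reads). unc-54, the muscle myosin heavy chain, had 40 and 106 antisense reads and 2859 and 1577 sense reads. npp-3, a nuclear pore protein, had 50 and 144.

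For many ncRNA genes the antisense reads may be the products of another gene. Of 260 ncRNA genes measured, 240 have an exon that overlaps a microRNA, tRNA, rRNA, snRNA or snoRNA gene on the opposite strand, and these held 97.9% of the antisense ncRNA reads in the control. Examples are T09B4.14 opposite mir-1, with 105057 and 71322 reads, and K01F9.6 opposite mir-80, with 50150 and 58048. Sense reads on mir-1 itself moved similarly, at 0.707 of the control. The lone lower gene of this kind was K07C10.6, with 1255 and 200 reads. It overlaps K07C10.2, whose sense reads, given above, were far fewer than these. Without the 241 genes of this kind from all classes, a set left out after the data had been seen, 23 of 462 genes were at least 4-fold lower and 2 at least 4-fold higher, and the median log2 ratio was 0.35.

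Lowering the minimum to 10 reads added many genes with less precise values. Of 4828 genes, 193 (4%) were at least 4-fold lower and 107 (2.22%) at least 4-fold higher. Among 3914 protein-coding genes 126 were at least 4-fold lower. Among them, named after their values were seen, were lin-42, a timing gene related to Period, with 38 and 4 reads, and atf-4, a stress response factor, with 32 and 2. On these 2 genes the other 7 libraries had at least 6.46 and 8.26 RPM, against 1.07 and 0.537 in the quadruple mutant. Of the 126 genes, 75 lay below all 7 other libraries. The control is one of these libraries and the genes were taken as lower than it, so nothing is read from this. The lysozyme gene lys-1 had 34 and 4 reads, and spp-1, a saposin-like gene, 41 and 2, with N2 at 0.441 RPM on each. ces-1, a Snail-family regulator of cell death fate, had 43 and 0 reads, and dis-3, exos-1 and eri-1;exos-10 were at 0 on it as well. Sense reads of lys-1 were 1028 and 1116.

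Histone genes stood apart from other coding genes at this depth. Summed antisense reads were 1786 in the control and 1078 in the quadruple mutant, a ratio of 0.627 (0.581 to 0.677). Of 58 histone genes with 10 or more reads, 34 were at least 2-fold lower and 8 at least 4-fold lower, beside 8.16% and 4% of all genes, and none was 2-fold higher. The median log2 ratio was -1.11, against 0.47 over all coding genes at this minimum. his-11, an H2B gene, had 72 and 13 reads. his-24, a linker histone H1 gene and the only one with 100 reads, had 263 and 373. Core histone genes are near-identical copies, so their reads can be split among members and the counts are not independent. Ribosomal protein genes had a median of 0.55 over 42 genes, with 1 at least 2-fold lower and 10 at least 2-fold higher, beside 8.16% and 18.3% of all genes.

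Germline gene lists had medians on both sides of that of all coding genes, 0.47. The median log2 ratio was 0.77 for 20 kinetochore and chromosome segregation genes, 0.74 for 15 meiotic genes, 0.41 for 10 germ granule genes and 0.38 for 12 germline regulators. klp-18, a kinesin of the meiotic spindle, had 90 and 149 antisense reads, and htp-1, an axis protein of meiotic chromosomes, 37 and 89. No gene of these 4 lists was 2-fold lower, beside 8.16% of all genes. F-box genes had a median of 0.45 over 62 genes, with 5 at least 2-fold lower and 9 at least 2-fold higher, no more than the 8.16% and 18.3% of all genes, and the MATH and BTB genes 0.36 over 25. Intestine and hypodermis genes had no member with 10 antisense reads, and body muscle genes had only unc-54.

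**Figure D4:**
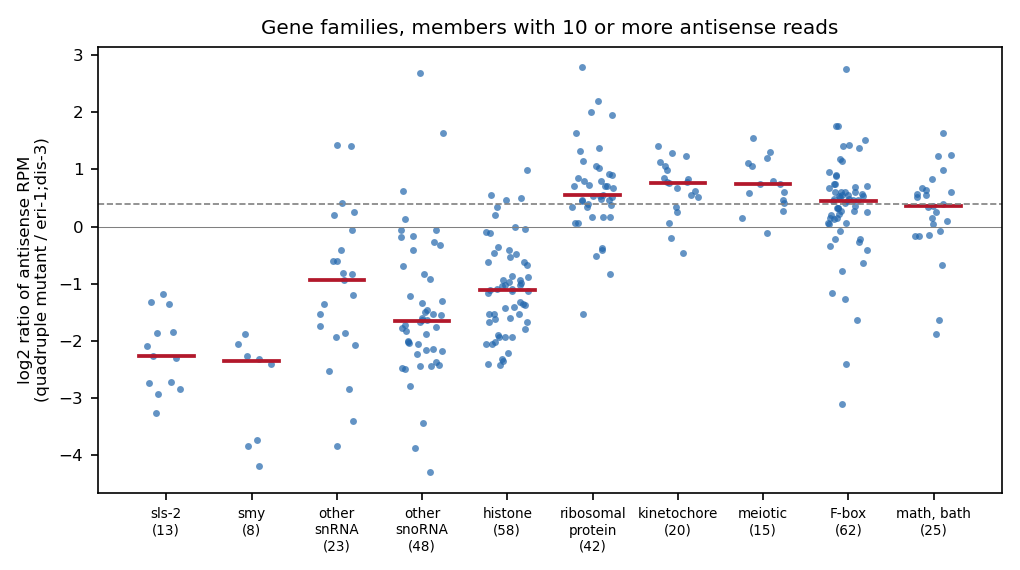
Log2 ratio of antisense RPM, quadruple mutant over eri-1;dis-3, for gene families, with members of 10 or more antisense reads (number in brackets). Red bars are medians and the dashed line is the median of all 4828 genes, 0.40. The sls-2, smy, snoRNA and histone medians lie below 0, and those of the ribosomal protein, kinetochore, meiotic, F-box and MATH and BTB genes above 0.

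The same genes were read in small RNAs bound to 3xFLAG::GFP::NRDE-3 in eri-1;dis-3 and in the quadruple mutant, again 1 library each. The control library held only 145733 reads for scaling, so that 1 read there is worth 6.86 RPM. Of the 24 lower genes, 21 had 20 or more reads in either library, and all 21 had log2 ratios below 0, beside 91 of all 540 genes measured. Some lay only just below 0, with ratios of 0.999 for H14N18.4 (0.666 to 1.55) and 0.979 for linc-169 (0.807 to 1.20). The intervals of Y53F4B.47, C16D9.11, F19G12.14 and Y105C5A.1283 also included 1. Because of how the 24 were chosen, the 540 genes are not a matched background. At least 2-fold lower were 13 of them, beside 4.63% of the 540 genes, and 7 were at least 4-fold lower, beside 1.85%, among them rrn-3.1 with 19800 and 2575 reads and sls-2.9 with 32 and 6. Scaling by all reads left 8 of 21 below 0, beside 2.59% of the 540 genes. The median of the 21 lay 2.19 below that of the 540 genes in log2 ratio. A change of scale shifts all genes alike, so it cannot alter this difference. The 7 snoRNA genes that stayed within 2-fold in total RNA were mixed in NRDE-3 RNA, where 16.9% of the 540 genes were at least 4-fold higher. K07C10.2 was at 2340 RPM in the control and 12351 in the quadruple mutant, B0334.12 at 542 and 2757, and Y57G11C.1145 at 391 and 5744. C06E7.95 had 2 and 41 reads (log2 ratio 1.52) and C17H12.36 18 and 56 (-0.70). Y73F8A.1175 was at 830 and 237 RPM and M03D4.78 at 2374 and 436. The libraries and the genotypes cannot be told apart here.

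**Figure D5:**
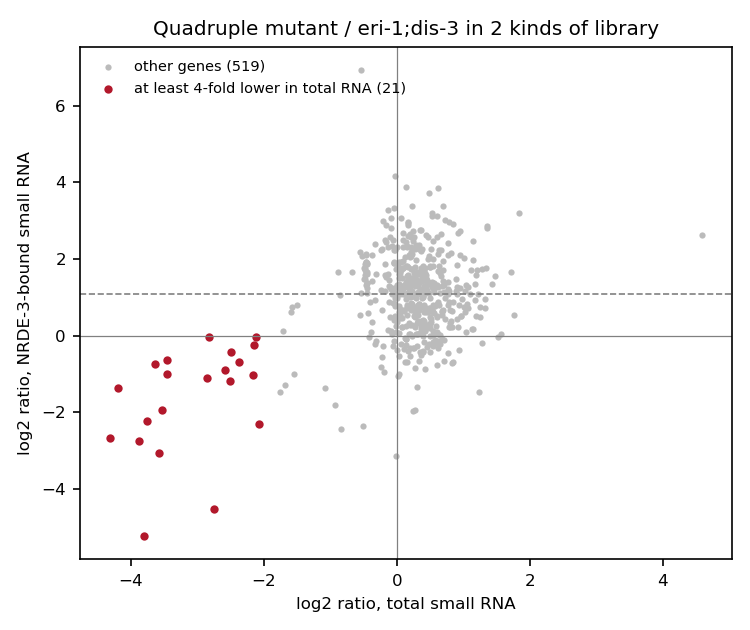
Log2 ratios, quadruple mutant over eri-1;dis-3, in total small RNA (x axis) and NRDE-3-bound small RNA (y axis) for 540 genes with 20 or more reads in either NRDE-3 library. Red points are the 21 genes at least 4-fold lower in total RNA, which all lie below 0, some of them only just. The dashed line is the median of all genes, 1.09.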

How the data were processed

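The authors isolated total RNA, treated it with phosphatase and kinase so that 5′ triphosphate RNAs could be cloned, and sequenced small inserts (18 to 30 nt in the methods, up to 40 nt in the labels). Reads were aligned with Bowtie2, the tool in the submitters' processing notes, to a WormBase transcript set, and the authors deposited sense and antisense read counts per transcript with an RNA class, which are whole-number counts and not normalized. Rows were summed per gene, and 3 rows without a gene identifier were left out (at most 0.00251% of reads). Names and WBcel235 coordinates came from Ensembl release 115, which held 98.6% of gene identifiers. The files give no coordinates.

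RPM are reads per 1000000 reads on transcripts, not counting sense rRNA or sense coding reads. The study also left sense rRNA and mRNA reads out of its total, which came from the genome alignment and was not used here. Log2 ratios used 1 read added to each count, and a gene was called at 4-fold. Ratios of 2 counts carry exact conditional (Clopper-Pearson) 95% intervals. Depth was 5094044 to 11556118 reads in the L3 total libraries and 7485475 to 11036168 in the NRDE-3 libraries. A count of 0 allows up to 3 reads, or 0.805 RPM in the quadruple mutant and 0.775 in the control. PCR reads without molecular identifiers are not independent molecules.

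Named genes were the 12 largest falls and 12 largest rises, the 10 with most antisense reads in the control, the 3 largest per class, up to 4 per list, all rRNA genes and the 4 RdRP genes. Others were chosen after their values were seen. The members and lists were chosen with earlier results of these data known. Alternatives were 4 other scales, other minimums, pseudocounts and folds, sets of genes left out, the largest row per gene, and eri-1 as control. 4 young adult RNAi libraries were not used. Python 3.11.15 with pandas 2.3.3, scipy 1.17.1 and matplotlib 3.10.9 was used.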

Additional observations from a re-analysis of the deposited data

Results flagged for a closer look

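C15F1.14, an ncRNA gene whose exon overlaps the snRNA gene sup-39 and mir-1831 on the opposite strand, moved in opposite directions in the 2 kinds of library. In total small RNA it had 77 antisense reads in the control and 176 in the quadruple mutant (log2 ratio 1.24). In NRDE-3 RNA it had 43 and 76 reads, or 295 and 107 RPM (log2 ratio -1.48). It is the only one of the 540 genes measured in both that moved by 2-fold or more in opposite directions. The difference was not tested. With all reads as the scale the median log2 ratio of all genes in NRDE-3 RNA went from 1.09 to 2.81, a shift larger than this fall.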

How the results depend on the processing

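No paired analysis was possible because there is 1 library per genotype and the labels give no replicate numbers; for the same reason no replicate could be left out. The number of genes at least 4-fold lower, 24, was 22 to 25 under the other scales and pseudocounts and with the most abundant transcript entry per gene, 16 without genes overlapping another on the opposite strand, and 33 at 2-fold. There were 193 with a minimum of 10 reads, 443 with 1 read, 5 with 500 reads and 12 at 10-fold. With eri-1 as control there were 92, of which 2 were among the 24. The 3 higher genes became 107, 500 and 0 at minimums of 10, 1 and 500 reads, 54 at 2-fold, 1 at 10-fold, 1 without genes that overlap another on the opposite strand, and 25 with eri-1 as control. The 0 lower members of the lists became 14 and 34 at minimums of 10 and 1 reads and 5 with eri-1 as control. The median log2 ratio over genes, 0.27, was 0.064 with all reads as the scale, 0.096 with sense microRNAs, 0.34 with sense piRNAs and 0.087 with antisense coding reads. It was 0.40, 0.12 and 0.18 at minimums of 10, 500 and 1 reads, 0.34 without genes overlapping another, 0.35 without genes opposite a structured RNA, and -0.47 with eri-1 as control. Of the lower genes 7 were also lower in NRDE-3 RNA, 2 with all reads as the scale and 21 with sense piRNAs.

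With eri-1 as control the class ratios were 4.95 for rRNA, 3.56 for snRNA, 2.18 for snoRNA, 3.70 for spliced leaders, 1.22 for microRNAs, 1.14 for ncRNA, 0.653 for coding genes, 0.451 for transposons and 0.439 for lincRNAs. With all reads as the scale coding genes were at 0.984, transposons at 1.01, lincRNAs at 0.833 and spliced leaders at 0.827. With sense microRNAs lincRNAs were at 0.852 and spliced leaders at 0.845, with antisense coding reads at 0.847 and 0.840. With sense piRNAs lincRNAs were at 1.01 and microRNAs at 0.843. Without genes overlapping another, lincRNAs were at 1.30, spliced leaders at 1.07 and rRNA at 1.82 (7 and 4 reads, since 26S and 18S genes overlap others). Without the 5 largest genes of a class, lincRNAs were at 0.782, spliced leaders at 0.182 and rRNA at 6.24 (6 and 1 reads). Spliced leaders without sls-1.12, chosen after the data had been seen, were at 0.212. F49E7.4 fell to log2 ratios of 1.99 and 1.96 with sense microRNAs and all reads. The other 156 values of named genes kept their side of 4-fold on these scales. The causes were not tested. Depth limits what can be said of the rRNA subunits and of genes under 100 reads.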
